A study of Mus musculus with 6 samples.

Results

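A set of 3 pairs of respiratory chain genes, each with a general isoform and an isoform of more restricted expression, were examined in cancer-associated fibroblasts (CAFs) of mouse colonic adenomas. The pairs were Cox4i1 and Cox4i2, Ndufa4 and Ndufa4l2, and Higd1a and Higd1b. They were chosen by gene name with earlier results of these data known. All 6 were found, each in 1 row, among the 49548 genes of the deposited expression table. The comparison was between 3 libraries of Col6a1+ (GFP+) CAFs and 3 libraries of Col6a1- (Tomato+) CAFs. The paper's legend counts 3 samples, each made from the pooled tumors of 5 to 6 mice. Whether Col6a1+ and Col6a1- libraries with the same replicate number shared a pool is not stated. The mice were of the C57/BL6 background and carried a Col6a1-driven Cre and the mTmG reporter. In this reporter Cre activity exchanges membrane Tomato for GFP. Both groups therefore shared the genotype and the tumor model, and differed in whether the Cre had been active in the cell or in a cell it descended from. The mice, of both sexes, had received a single injection of the carcinogen azoxymethane (AOM) at 8 to 10 weeks of age and 3 cycles of 2.5% dextran sodium sulfate (DSS), an agent that causes colitis, each with 14 days of regular water after it. Cells with CD45, EpCAM, CD31 or Ter119 on their surface were removed in the sort, and the remaining mRNA was sequenced from its 3′ ends.

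Cytochrome c oxidase, or complex IV, passes electrons to oxygen at the end of the mitochondrial respiratory chain. Its nuclear-encoded subunit 4 has a general form, COX4I1, and an alternative form, COX4I2, which is known from lung and vascular smooth muscle and takes part in acute oxygen sensing of pulmonary arteries. NDUFA4 was first described as a part of complex I and was later assigned to complex IV, while its paralogue NDUFA4L2 is induced through the hypoxia-inducible factor HIF-1 and lowers oxygen use under hypoxia. HIGD1A belongs to the family of hypoxia-induced gene domain proteins and binds complex IV, and HIGD1B belongs to the same family. Transcripts of Cox4i2, Ndufa4l2 and Higd1b are known as markers of pericytes, the contractile cells that wrap small vessels.

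The isoforms of each pair differ in sequence, by the identities and the longest shared runs given below. Printed here is the stretch of coding sequence that holds the longest shared run of each pair. Where the reads fall along these transcripts is not given in the sources used here, so how many can be told apart was not tested. Capitals mark the longest run of bases that both coding sequences share, with up to 15 bases on either side in lower case, read 5′ to 3′ on the coding strand from the GENCODE M21 transcripts of GRCm38 (mm10).
Cox4i2: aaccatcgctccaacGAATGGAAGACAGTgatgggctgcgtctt
Cox4i1: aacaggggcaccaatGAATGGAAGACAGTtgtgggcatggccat
Ndufa4l2: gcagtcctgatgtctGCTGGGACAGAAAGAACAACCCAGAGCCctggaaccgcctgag
Ndufa4: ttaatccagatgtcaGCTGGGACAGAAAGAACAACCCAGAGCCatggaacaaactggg
Higd1b: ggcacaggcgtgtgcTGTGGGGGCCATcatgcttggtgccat
Higd1a: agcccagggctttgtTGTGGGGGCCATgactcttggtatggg

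The Cox4i2 stretch lies in exon 3 of 4 at chr2:152760676-152760719 on the plus strand, and the Cox4i1 stretch in exon 4 of 5 at chr8:120673259-120673302 on the plus strand. Those of the NDUFA4 pair cross from exon 2 to exon 3 of 4, at chr10:127515472-127516306 on the plus strand for Ndufa4l2 and at chr6:11905221-11906035 on the minus strand for Ndufa4, so that these coordinates include an intron. The Higd1b stretch crosses from exon 2 to exon 3 of 3 at chr11:102837334-102837914 on the plus strand, and the Higd1a stretch from exon 3 to exon 4 of 4 at chr9:121849683-121850222 on the minus strand, again with the intron between them. Over the aligned coding bases the identity was 69.2% for the COX4 pair (490 bases), 68.6% for the NDUFA4 pair (245 bases) and 58.4% for the HIG1 pair (286 bases). The longest run of identical bases was 14, 28 and 12 in the coding sequences, and 14, 33 and 12 when whole transcripts were compared.

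The sums of normalized counts per library were 3039152 to 3425249. Col6a1+ replicate 1 stood apart by the number of genes with any count, 14530 against 18770 to 20511 in the other 5 libraries. Col6a1 itself was measured at 861, 1287 and 1941 normalized counts in the Col6a1+ libraries and at 182, 321 and 102 in the Col6a1- libraries (log2 fold change 2.82, SE 0.44, limma adjusted p = 0.00613), so the labels held for the gene they are named after. The markers of other cell types also differed between the groups. Of 10 pericyte markers, 9 were called higher in Col6a1+ CAFs and none lower, and the list summed to 41924 to 91683 normalized counts in the Col6a1+ libraries, with replicate 1 highest, against 1167 to 2172 in the Col6a1- libraries. Of 8 smooth muscle markers 5 were called higher (2826 to 3721 against 136 to 623). Of 10 fibroblast markers 4 were called higher and 2 lower (37755 to 41677 against 7808 to 14814). Of 14 epithelial markers 8 were called lower (5962 to 6794 against 20928 to 35404), and transcripts of Epcam, whose protein the sort had used to exclude cells, had means of 858 and 3655 normalized counts. Of 8 immune markers only S100a8 was called, as lower, and the list summed to 49 to 70 against 315 to 548. No endothelial marker was called by limma, with sums of 148 to 291 against 208 to 494. At an unadjusted limma p under 0.05, 0 of these 8 were higher and 2 lower, against 1751 and 2483 of all 26402 genes tested. With the replicate number as a block, a fit described with the isoforms, Col6a1 (adjusted p = 0.0983) and these markers were not called.

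**Figure D1:**
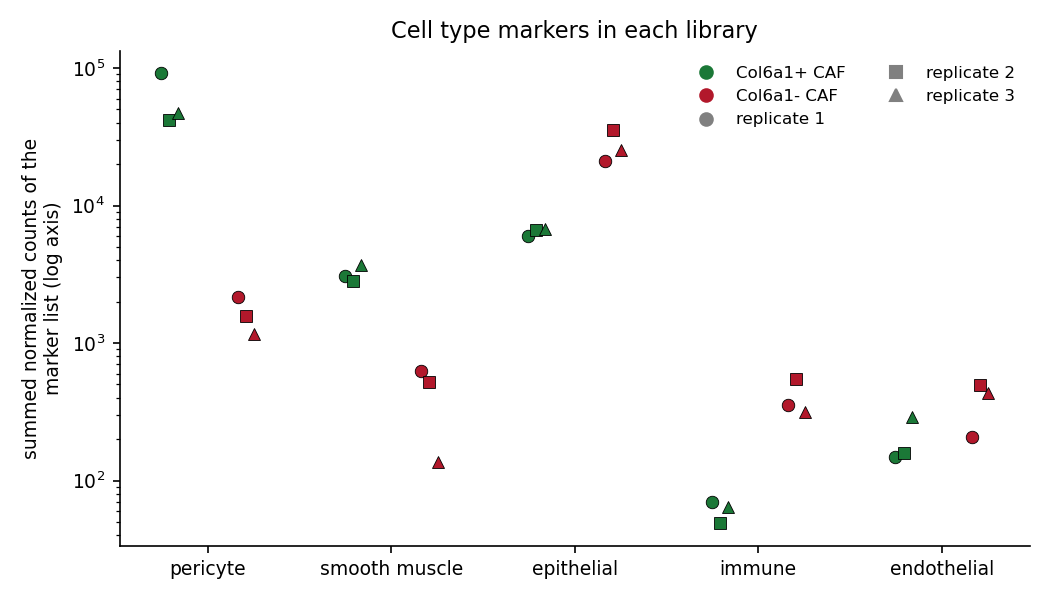
Summed normalized counts (log axis) of 5 lists of cell type markers in each library, with Col6a1+ CAFs in green, Col6a1- CAFs in red and the shape of the point giving the replicate number. Pericyte and smooth muscle markers lay higher in every Col6a1+ library and epithelial and immune markers in every Col6a1- library, while the endothelial sums overlapped.

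The question here was whether the general and the restricted isoforms followed the same pattern between the CAF subsets. All 3 restricted isoforms were called higher in Col6a1+ CAFs, by limma at an adjusted p under 0.05, and none of the 3 general isoforms was called. Of the 26402 genes tested, which had a normalized count of 1 or more when the libraries were summed, 4.62% were called, 2.66% as higher and 1.96% as lower. The isoforms were chosen with earlier results of these data known, so this share is a description beside them and not independent support. In bulk libraries a difference in the number of cells of a type and a difference in RNA per cell cannot be told apart.

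Cox4i2 (ENSMUSG00000009876, chr2:152754173-152765037) was measured at 150, 94 and 122 normalized counts in Col6a1+ replicates 1, 2 and 3 and at 0, 2 and 3 in the Col6a1- libraries. The means were 122 ± 28.0 and 1.67 ± 1.53 (SD, n = 3 each). The lowest Col6a1+ library was far above the highest Col6a1- library, and the ratio of the summed counts was 73.2 (95% interval 31.1 to 226.8), where the interval treats normalized counts as reads and covers counting error only. The log2 fold change was 5.72 (SE 0.80, limma adjusted p = 0.00338).

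Ndufa4l2 (ENSMUSG00000040280, chr10:127514939-127517152) was measured at 317, 158 and 185 normalized counts in the Col6a1+ libraries and at 1, 5 and 0 in the Col6a1- libraries, with means of 220 ± 85.1 and 2.0 ± 2.65 (SD, n = 3 each). The groups did not overlap, and the ratio of the summed counts was 110 (95% interval 50.3 to 300.8, counting error only). The log2 fold change was 6.53 (SE 0.79, limma adjusted p = 0.00190). The last bases of Ndufa4l2 overlap the end of Shmt2, a mitochondrial serine hydroxymethyltransferase gene on the opposite strand (chr10:127517123-127522444), which had 62, 60 and 64 normalized counts in the Col6a1+ libraries and 18, 38 and 30 in the Col6a1- libraries. Whether reads were counted by strand is not given in the sources used here.

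Higd1b (ENSMUSG00000020928, chr11:102835849-102838040) had no count in any of the 3 Col6a1- libraries. In the Col6a1+ libraries it was measured at 33, 140 and 144 normalized counts, a mean of 106 ± 63.0 (SD, n = 3). Set against a floor of 3 counts per library, which a count of 0 allows, the Col6a1+ mean was 35.2-fold higher. This floor treats normalized counts as reads and covers counting error only, not the spread between the Col6a1+ libraries. The fitted log2 fold change, which depends on the pseudocount of 1, was 6.47 (SE 0.94, limma adjusted p = 0.00435). Within the Col6a1+ group the highest library exceeded the lowest 4.36-fold for Higd1b, against 1.60-fold for Cox4i2 and 2.01-fold for Ndufa4l2. Replicate 1 held the lowest Higd1b value and the highest Cox4i2 and Ndufa4l2 values, so the 3 genes did not share an order over these libraries.

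These calls depended on how the replicate numbers were handled. Deviations of same-numbered libraries of the 2 groups had correlations of 0.245, 0.125 and 0.144, against -0.245 to 0.15 for different numbers. With the number as a block the limma adjusted p was 0.0659 for Cox4i2, 0.0612 for Ndufa4l2 and 0.0618 for Higd1b, with unaltered fold changes. In that fit limma called 0 of the 26402 genes (1851 higher and 2567 lower at an unadjusted p under 0.05). Restricted to the 13515 genes whose mean reached 10 normalized counts, an alternative chosen after seeing the data, the blocked limma fit gave adjusted p-values of 0.0047, 0.00283 and 0.00586. The restricted isoforms reached that mean only through their Col6a1+ values, the difference under test. These p-values are therefore no separate support and do not restore the calls. Without Col6a1- replicate 1 the values were 0.0503, 0.0717 and 0.0749, and without Col6a1- replicate 3 that of Higd1b was 0.0631. Without Col6a1+ replicate 1, the library with the fewest detected genes, all 3 isoforms were still called. Over all alternatives the adjusted p lay between 0.00185 and 0.0659 for Cox4i2, between 0.000734 and 0.0717 for Ndufa4l2 and between 0.000478 and 0.0749 for Higd1b.

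The general isoforms were detected in both subsets and had lower means in the Col6a1+ libraries, and none of these differences passed the test. Cox4i1 (ENSMUSG00000031818, chr8:120668222-120674207) was measured at 511, 662 and 712 normalized counts in the Col6a1+ libraries and at 1020, 917 and 689 in the Col6a1- libraries. Its means were 628 ± 105 and 875 ± 169 (SD, n = 3 each), and the groups overlapped. The log2 fold change was -0.47 (SE 0.28, limma adjusted p = 0.468), against a median of -0.27 over all genes tested. The table also lists Gm20388, a gene model on the same strand that spans Cox4i1 (chr8:119910841-124345722), at 1004, 823 and 619 normalized counts against 595, 411 and 325, and how reads within both models were assigned is not given in the sources used here. The first bases of Cox4i1 overlap Emc8 on the opposite strand.

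Ndufa4 (ENSMUSG00000029632, chr6:11900292-11907497) had low counts, of 0, 39 and 12 in the Col6a1+ libraries and of 48, 41 and 77 in the Col6a1- libraries. The means were 17 ± 19.975 and 55.3 ± 19.1 (SD, n = 3 each). All 3 Col6a1+ values lay below all Col6a1- values, a pattern found in 11.6% of all genes tested, although replicates 2 of both groups were only 2 counts apart. The log2 fold change was -2.76 (SE 1.17) and was not called (limma adjusted p = 0.272). The value of 0 came from Col6a1+ replicate 1, the library with the fewest detected genes, and without that library the log2 fold change was -1.25 (adjusted p = 0.33, against 0.127 to 0.603 over all alternatives). Its 4 pseudogenes with similar transcripts (Gm14450, Gm14630, Gm37603 and Gm45446) had at most 3 normalized counts in any library.

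Higd1a (ENSMUSG00000038412, chr9:121848563-121858362) was measured at 280, 128 and 110 normalized counts in the Col6a1+ libraries and at 205, 231 and 200 in the Col6a1- libraries. The means were 173 ± 93.4 and 212 ± 16.6 (SD, n = 3 each). The Col6a1+ values lay on either side of the narrow Col6a1- range, with replicate 1 above it and replicates 2 and 3 below. The log2 fold change was -0.42 (SE 0.40, limma adjusted p = 0.639). These counts are uncertain, because the processed pseudogene Gm9790 (chr3:85915783-85916070) is 99.306% identical to the Higd1a transcript over 288 bases and was itself counted at 541, 417 and 351 against 749, 871 and 940. The sum of both genes was 821, 545 and 461 in the Col6a1+ libraries and 954, 1102 and 1140 in the Col6a1- libraries, and then the groups no longer overlapped (log2 difference -0.84, exact permutation p = 0.1, two-sided, the smallest that 3 against 3 libraries allow). An antisense gene over 683 bases of Higd1a in the reference annotation, Gm47112, was not analysed here.

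**Figure D2:**
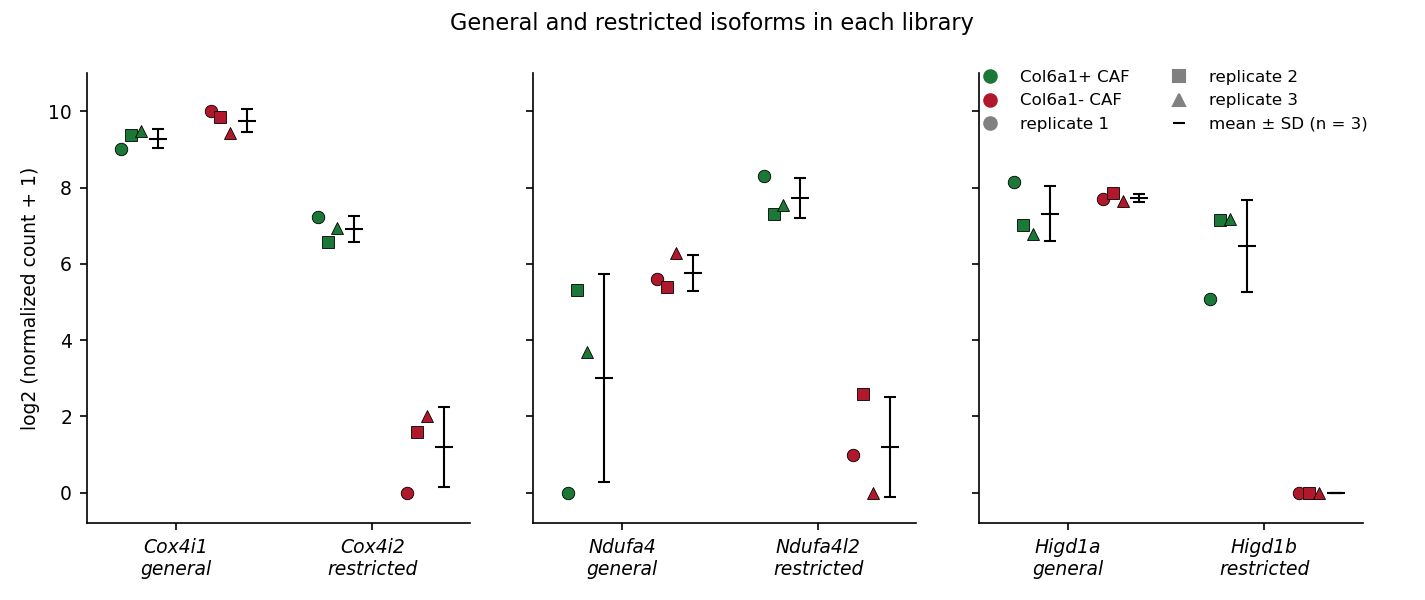
Log2 of the normalized count plus 1 of each general and restricted isoform, by library, with Col6a1+ CAFs in green, Col6a1- CAFs in red, the shape giving the replicate number and bars the mean ± SD (n = 3). The 3 restricted isoforms were near or at 0 in every Col6a1- library, whereas Cox4i1 and Higd1a overlapped between the groups and Ndufa4 had its single 0 in Col6a1+ replicate 1.

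Across the 6 genes, 3 had no overlap with higher values in Col6a1+ CAFs and 1 with lower values, where 7.91% and 11.6% of all genes tested did so. The difference between the isoforms of a pair, taken within each library, does not depend on the scaling between libraries other than through the pseudocount. Because 3′ reads do not grow with transcript length, the counts were not divided by length. How fully the 3′ end of each gene was counted is not known. Signs and shares within a library therefore describe counts, and only the change of each pair between the CAF subsets is compared here.

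For the COX4 pair, log2 Cox4i2 minus log2 Cox4i1 was -1.76, -2.80 and -2.54 in Col6a1+ replicates 1, 2 and 3 and -10.0, -8.26 and -7.43 in the Col6a1- libraries. The means were -2.37 ± 0.54 and -8.56 ± 1.31 (SD, n = 3 each), a difference of 6.19 (SE 0.82). Of the counts of the pair, Cox4i2 made up 16.6% ± 5.40 (SD, n = 3) in the Col6a1+ libraries and 0.217% ± 0.217 in the Col6a1- libraries. The shares did not overlap between the subsets.

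For the NDUFA4 pair, log2 Ndufa4l2 minus log2 Ndufa4 was 8.31, 1.99 and 3.84 in the Col6a1+ libraries and -4.62, -2.81 and -6.29 in the Col6a1- libraries. The sign changed between the subsets, with more counts of Ndufa4l2 in all 3 Col6a1+ libraries and more counts of Ndufa4 in all 3 Col6a1- libraries. Ndufa4 was counted far below Cox4i1, another complex IV subunit gene (means of 628 and 875), and why was not tested. The sign thus describes counts and not the relative amounts of both transcripts. The means were 4.71 ± 3.25 and -4.57 ± 1.74 (SD, n = 3 each), a difference of 9.28 (SE 2.13). Ndufa4l2 made up 91.4% ± 10.1 of the counts of the pair in the Col6a1+ libraries and 4.30% ± 5.78 in the Col6a1- libraries. The largest single value, 8.31, rests on the 0 of Ndufa4 in Col6a1+ replicate 1, and without that library the difference was 7.48.

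For the HIG1 pair, log2 Higd1b minus log2 Higd1a was -3.05, 0.13 and 0.39 in the Col6a1+ libraries and -7.69, -7.86 and -7.65 in the Col6a1- libraries. The means were -0.84 ± 1.91 and -7.73 ± 0.11 (SD, n = 3 each), a difference of 6.89 (SE 1.11). Higd1b made up 10.5%, 52.2% and 56.7% of the counts of the pair in Col6a1+ replicates 1, 2 and 3, so replicate 1 was low in the restricted and high in the general isoform. With Higd1a and its copy Gm9790 summed, an alternative chosen after seeing the data, the difference between the subsets was 7.31.

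In each of the 3 pairs the lowest Col6a1+ value exceeded the highest Col6a1- value, by 4.63, 4.80 and 4.60 on the log2 scale for the COX4, NDUFA4 and HIG1 pairs. The exact permutation test over libraries gave p = 0.1 for each (two-sided), which is the smallest p that 3 against 3 libraries allow. Taken within the pairs of libraries with the same replicate number, the difference was 4.89 to 8.23 for the COX4 pair, 4.80 to 12.9 for the NDUFA4 pair and 4.64 to 8.04 for the HIG1 pair, and the exact sign-flip test gave p = 0.25, the smallest it can give with 3 pairs.

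**Figure D3:**
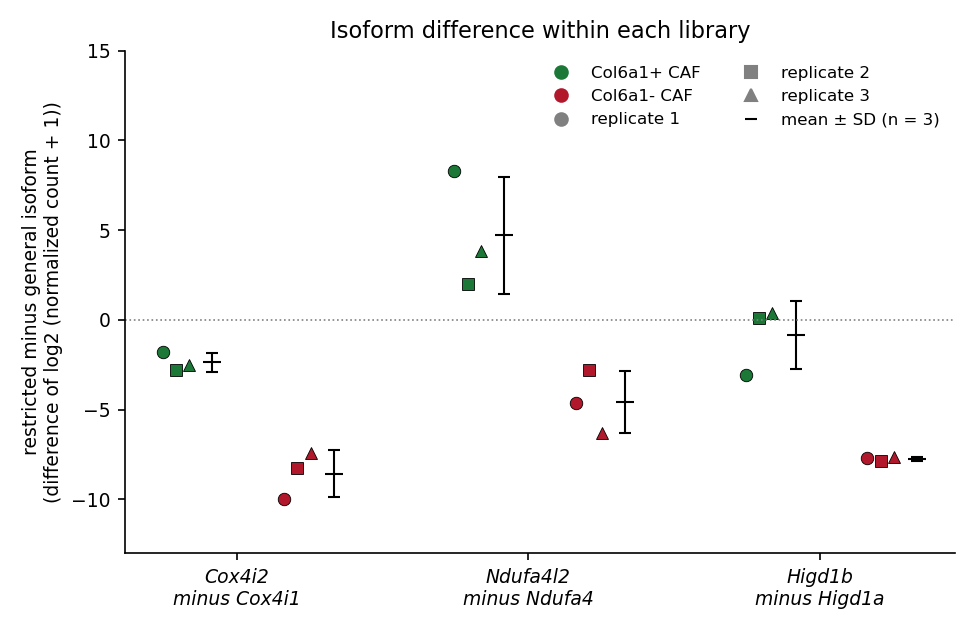
Restricted minus general isoform within each library, as a difference of log2 (normalized count + 1), with Col6a1+ CAFs in green, Col6a1- CAFs in red, the shape giving the replicate number and bars the mean ± SD (n = 3). Each Col6a1+ value lay above every Col6a1- value of its pair, and the sign changed between the subsets in all libraries of the NDUFA4 pair.

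The other nuclear-encoded subunits of complex IV were examined next. Of 17 genes on this list, Cox7b2, Cox8b and Cox8c were at 0 in every library and 14 were tested. None of them was called higher by limma and 1 was called lower, where 2.66% and 1.96% of all genes tested were called. At an unadjusted limma p under 0.05, 1 was higher and 3 were lower, against 1751 and 2483 of all 26402 genes tested. The log2 fold change was positive for 3 and negative for 11, with a median of -0.48 against -0.27 over all genes. Limma-voom also called 1 gene of the list.

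The gene called lower was AA467197, the mouse counterpart of NMES1 and a paralogue of Ndufa4. It was measured at 986, 806 and 775 normalized counts in the Col6a1+ libraries and at 2604, 3728 and 2526 in the Col6a1- libraries (means 856 ± 114 and 2953 ± 673, SD, n = 3 each). Every Col6a1+ library was below every Col6a1- library, with a log2 fold change of -1.77 (SE 0.28, limma adjusted p = 0.00593). With the replicate block the adjusted p was 0.0651, and the call was also lost without any 1 of the 3 Col6a1- libraries. Ndufa4l2 and AA467197, both relatives of Ndufa4, thus lay on opposite sides. The epithelial markers were higher in the same libraries as AA467197, and their part in this result was not tested.

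Among the other subunits, the structural genes with the highest counts overlapped between the groups. Cox8a had means of 1843 ± 507 and 1915 ± 564 normalized counts (log2 fold change -0.04, SE 0.32, limma adjusted p = 0.957). Cox6c had means of 1355 ± 284 and 1114 ± 86.9 (log2 fold change 0.27, SE 0.27, adjusted p = 0.642). Cox6b2, an isoform of subunit 6B best known from testis, was measured at 188, 116 and 130 in the Col6a1+ libraries and at 62, 55 and 23 in the Col6a1- libraries, without overlap but also without a call (log2 fold change 1.70, SE 0.48, limma adjusted p = 0.0773). It was called when genes below 10 normalized counts in any library were left out (adjusted p = 0.0402) and in the blocked fit restricted to means of 10 or more (adjusted p = 0.035), and was named after its values were seen. Cox7a1, a subunit isoform of heart and skeletal muscle, had only 7, 30 and 9 normalized counts against 31, 42 and 19 and was likewise named after its values were seen. Of the other HIG1 family genes, Higd2a had means of 361 ± 73.7 and 476 ± 107 (log2 fold change -0.39, SE 0.31, adjusted p = 0.603), and Higd1c had at most 1 normalized count in any library.

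Ndufa4l2 and Higd1a are known as genes induced under low oxygen, and the general transcriptional response to hypoxia was set beside them. Of 32 such genes, all tested, 3 were called higher and 1 lower in Col6a1+ CAFs, where 2.66% and 1.96% of all genes tested were called. At an unadjusted limma p under 0.05, 3 were higher and 7 lower, against 1751 and 2483 of all 26402 genes tested. The groups did not overlap for 3 higher and 6 lower genes, against 7.91% and 11.6% of all genes tested. The log2 fold change was positive for 10 and negative for 22, with a median of -0.46 against -0.27 over all genes. The glucose transporter gene Slc2a3 had 228, 242 and 308 normalized counts in the Col6a1+ libraries and 7, 25 and 33 in the Col6a1- libraries (log2 fold change 3.75, SE 0.56, limma adjusted p = 0.00492). P4ha1 and P4ha2, which encode subunits of the prolyl hydroxylase of collagen, were higher as well. P4ha1 was measured at 146, 192 and 152 against 23, 55 and 47 (2.02 on the log2 scale, SE 0.44, adjusted p = 0.0283) and P4ha2 at 109, 160 and 245 against 59, 28 and 44 (1.93, SE 0.46, adjusted p = 0.0401).

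The gene called lower, the glycolytic aldolase gene Aldoc, had 19, 11 and 23 normalized counts in the Col6a1+ libraries and 194, 128 and 187 in the Col6a1- libraries (log2 fold change -3.23, SE 0.47, limma adjusted p = 0.00446). With the replicate block none of these 4 was called, at adjusted p-values of 0.0630 for Slc2a3, 0.0905 for P4ha1, 0.141 for P4ha2 and 0.0612 for Aldoc. The call of Aldoc was also lost without any 1 Col6a1- library, that of Slc2a3 without any 1 Col6a1- library or Col6a1+ replicate 3, that of P4ha1 without any 1 library, and that of P4ha2 without any 1 library other than Col6a1+ replicate 1. The genes of the list with the highest counts were not called, although for Adm all Col6a1+ values lay below all Col6a1- values. Aldoa had means of 1576 ± 406 and 1630 ± 459, Adm, the gene of the vasodilator peptide adrenomedullin, of 1017 ± 293 and 1915 ± 616, and Ldha, the lactate dehydrogenase A gene, of 916 ± 112 and 1170 ± 245 (adjusted p = 0.959, 0.200 and 0.603).

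**Figure D4:**
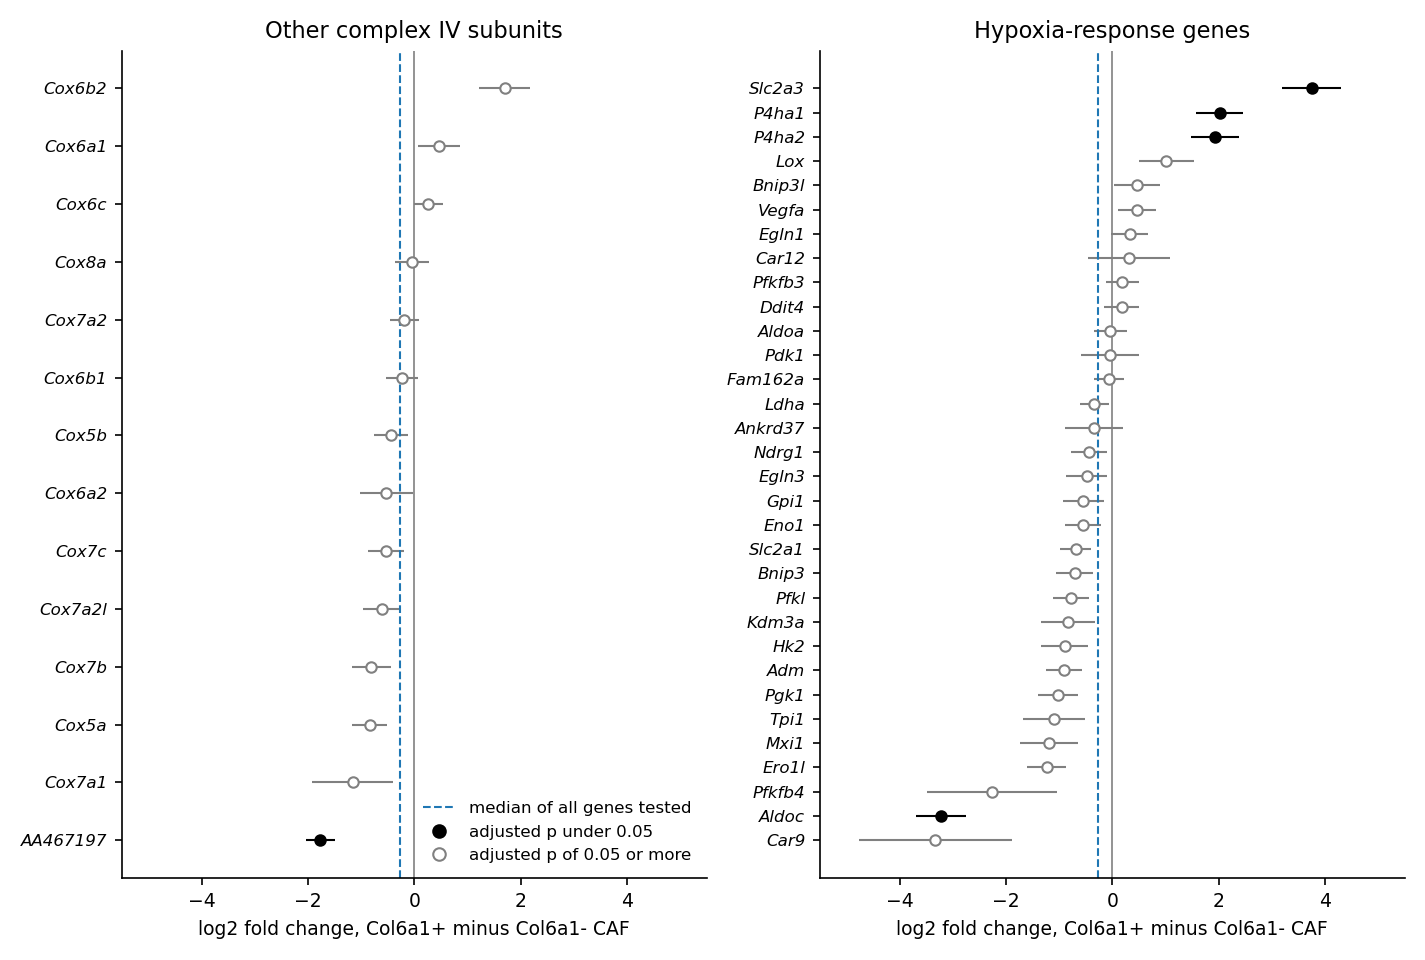
Log2 fold change, Col6a1+ minus Col6a1- CAFs, of the 14 other complex IV subunit genes tested and of the 32 hypoxia-response genes, where bars are the SE, filled points have a limma adjusted p under 0.05 and the dashed line is the median over all genes tested (-0.27). Only AA467197 on the left and Slc2a3, P4ha1, P4ha2 and Aldoc on the right are filled, and most open points lie below 0.

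Of the 8 genes of the HIF pathway 1 was called, where 4.62% of all genes tested were. Epas1, which encodes HIF-2α, an oxygen-regulated factor of endothelial and perivascular cells among others, was measured at 2269, 1736 and 2331 normalized counts in the Col6a1+ libraries and at 182, 288 and 125 in the Col6a1- libraries (log2 fold change 3.48, SE 0.34, limma adjusted p = 0.000862). Its adjusted p with the replicate block was 0.0612, and it was called without each library in turn except Col6a1- replicate 1. Hif1a, which encodes HIF-1α, had means of 487 ± 61.9 and 488 ± 136 (log2 fold change 0.03, SE 0.30, adjusted p = 0.981). Hif1an, the gene of an asparagine hydroxylase that inhibits HIF, had means of 188 ± 57.8 and 277 ± 67.3 (adjusted p = 0.488). HIF activity is regulated mainly through protein stability, which these libraries do not measure.

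Of 3 factors known to act at the oxygen-responsive element of the Cox4i2 promoter, Rbpj, Cxxc5 and Chchd2, limma called none (0 higher and 0 lower at an unadjusted p under 0.05, and 0 by limma-voom). With 4.62% of all genes tested called, none of 3 is near that share. Rbpj, which also mediates Notch signaling, was measured at 81, 111 and 121 normalized counts in the Col6a1+ libraries and at 54, 46 and 86 in the Col6a1- libraries (log2 fold change 0.77, SE 0.42, adjusted p = 0.423). Cxxc5 had means of 152 ± 103 and 96.7 ± 30.1 (log2 fold change 0.37, SE 0.59, adjusted p = 0.733), and Chchd2 of 4070 ± 1497 and 5605 ± 610 (-0.52, SE 0.31, adjusted p = 0.475).

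The genes most like each restricted isoform were ranked by the root mean square difference of log2 values, each centred on its gene's mean over the 6 libraries, among the 13514 other genes whose mean reached 10 normalized counts. The ranking is a description over 6 libraries that mostly follows the difference between the subsets. Nearest to Cox4i2 were Hey2 (0.362), a transcriptional repressor downstream of Notch, Gpr4 (0.522), a proton-sensing receptor, Gjc1 (0.569), the gap junction gene of connexin 45, Olfm2 (0.573) and Olfr558 (0.579). Hey2 had 68, 55 and 71 normalized counts in the Col6a1+ libraries and 0, 1 and 1 in the Col6a1- libraries.

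Among the nearest to Ndufa4l2 were Rgs5 (0.479), a regulator of G protein signaling used as a pericyte marker, Galnt16 (0.566), Cspg4 (0.622), the gene of the pericyte proteoglycan NG2, and Enpep (0.641), the gene of glutamyl aminopeptidase. Rgs5 was measured at 42173, 29648 and 31282 in the Col6a1+ libraries and at 509, 700 and 297 in the Col6a1- libraries, with replicate 1 highest as for Ndufa4l2. Nearest to Higd1b was Rgs7bp (0.457), a binding partner of G protein regulators, which shared its low value in Col6a1+ replicate 1 (99, 439 and 579 against 2, 4 and 6). The next were Gm27300 (0.791), Rgs4 (0.860), Cspg4 (0.861) and Ephx3 (0.882). Between the restricted isoforms themselves the measure was 1.087 for Cox4i2 and Ndufa4l2, 1.116 for Cox4i2 and Higd1b, and 1.242 for Ndufa4l2 and Higd1b. Each was nearer to some other genes than to the other restricted isoforms. With the isoform itself included, 25 to 85 genes were closer, of 13514 compared. The pericyte markers were higher in the same libraries as the restricted isoforms, and their part in these differences was not tested.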

How the data were processed

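QuantSeq 3′ libraries, 3 of Col6a1+ and 3 of Col6a1- CAFs, were sequenced on an Ion Proton instrument. The authors mapped reads to mm10 with TopHat2, then Bowtie2 for the remainder, counted them per gene with GenomicRanges and normalized them with DESeq in metaseqR. They deposited the log2 of the normalized count plus 1, and 100% of these values gave whole normalized counts within 1e-06. The authors' own p-values, false discovery rates and fold changes, and 6 per-sample columns, were not used. Raw read depth is not given. Groups and replicate numbers came from the labels. The labels give each library as a separate sample, and do not say whether same-numbered libraries of both groups came from the same tumor pool. Without the replicate block the p-values treat all libraries as independent, which is not known. With the block they measure the spread between same-numbered pairs.

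The log2 values were fitted with limma 3.58.1 (R 4.3.3, trend, two-sided) over the 26402 genes that had 1 or more normalized counts in total, with Benjamini-Hochberg adjustment and a threshold of 0.05, after a check on simulated data. Isoform differences were tested by exact permutation (Python 3.11.15, NumPy 2.4.6, pandas 2.3.3, SciPy 1.17.1). Similar transcripts were sought with BLAST 2.17.0 (at least 80% identity over 80 bases), coding sequences were aligned with Biopython 1.88, and plots were drawn with Matplotlib 3.10.9. Deviations of same-numbered libraries were weakly and positively correlated (0.245, 0.125 and 0.144 over 13515 genes, against -0.245 to 0.15 for different numbers). Blocked values are therefore given where they change a call. Alternatives were scaling by library totals, a minimum of 10 normalized counts in each library or on average, limma-voom, a pseudocount of 0.1, the block and leaving out each library. The members and lists were chosen with earlier results of these data known. Named were the members, the 5 genes nearest to each restricted isoform (1 of them is not reported here), and from each list of genes the called genes, the 3 with the highest level and genes set by name. The tables used here held promoter sequences for Ndufa4 and Higd1a and no protein sequences, and none was printed.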

Additional observations from a re-analysis of the deposited data

How the results depend on the processing

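No result changed sign under any alternative run. With the replicate block the log2 fold changes stayed at 5.722 for Cox4i2, 6.527 for Ndufa4l2 and 6.469 for Higd1b and none was called (adjusted p = 0.0659, 0.0612 and 0.0618 by limma). The block also left 0 genes called higher and 0 lower over all genes, against 703 and 517, with 0 complex IV subunits lower and 0 hypoxia-response genes in either direction. Restricted to means of 10 or more, the block called 981 genes higher and 871 lower, 4 hypoxia-response genes lower and 1 complex IV subunit higher, Cox6b2, which was also the 1 called under a minimum of 10 normalized counts per library. That filter left out Cox4i2, Ndufa4l2, Higd1b and Ndufa4. Genes called lower numbered 798 with limma-voom and 336 with a pseudocount of 0.1. Leaving out 1 library at a time gave log2 fold changes of 5.124 to 6.124 (Cox4i2), 5.929 to 7.222 (Ndufa4l2) and 6.114 to 7.16 (Higd1b), 11 to 453 genes higher and 1 to 442 lower, both lowest without Col6a1- replicate 1, with 0 to 1 complex IV subunits lower, 0 to 2 hypoxia-response genes higher and 0 to 1 lower. The block also ended the call of Epas1 (adjusted p = 0.0612), and, restricted to means of 10 or more, called Cox17 lower (0.048). Isoform differences ranged from 5.477 to 7.586, 7.484 to 11.878 and 6.273 to 10.193, but 3 libraries a group allow no exact p under 0.1. The causes of these shifts were not tested. With Col6a1- values of 0 to 5 counts for the restricted isoforms, depth limits the size of their fold changes.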

Other observations

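The assembly factors of complex IV, which insert its metal centres and join its subunits, were measured beside the isoforms. Limma called none of 20 (1 higher and 2 lower at an unadjusted p under 0.05, 0 by limma-voom), and their median log2 fold change was -0.07 against -0.27 over all genes tested. Of all 26402 genes tested 4.62% were called, and 1751 were higher and 2483 lower at that unadjusted limma p. The counts of this list are near those shares. Lrpprc, whose protein stabilizes mitochondrial mRNAs, had 2646, 368 and 711 normalized counts in the Col6a1+ libraries and 1472, 811 and 691 in the Col6a1- libraries. Cox17, a copper chaperone gene, had 819, 367 and 410 against 1264, 727 and 786 (log2 fold change -0.85, SE 0.37, adjusted p = 0.288), and Cox14 had means of 327 ± 39.7 and 409 ± 61.0. In the blocked fit over genes with a mean of at least 10, Cox17 was called lower (adjusted p = 0.048).

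Of 4 genes of mitochondrial proteolysis and mitophagy, limma called none (0 in either direction at an unadjusted p under 0.05, 0 by limma-voom). With 4.62% of all genes tested called, none of 4 is near that share. Lonp1, the gene of the matrix protease that degrades COX4I1 when isoforms are exchanged under hypoxia, had 162, 129 and 52 normalized counts in the Col6a1+ libraries and 206, 95 and 697 in the Col6a1- libraries, where replicate 3 stood far above the others (log2 fold change -1.21, SE 0.67, adjusted p = 0.434). Htra2 had means of 40.7 ± 24.0 and 32 ± 9.54, Fundc1, a mitophagy receptor gene, of 35.3 ± 29.9 and 51.3 ± 25.7, and Pink1 of 78.7 ± 10.8 and 103 ± 31.5. The glial markers summed to 55 to 73 normalized counts in the Col6a1+ libraries and to 29 to 76 in the Col6a1- libraries, and the erythroid markers to 74 to 987 and 187 to 346, with none of either list called by limma (1 glial marker higher and 0 erythroid markers at an unadjusted p under 0.05).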
